A study of Mus musculus with 16 samples.

Results

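The genes described here were 10 feedback inhibitors of cytokine and Kit signals: Cish, Socs1, Socs2 and Socs3 of the SOCS family, the ERK phosphatase genes Dusp4, Dusp5 and Dusp6, and Spred1, Spry1 and Spry2 of the Sprouty family. They were chosen by name, and every probe set annotated with a single gene symbol that was one of these names was taken. This gave 25 of the 45037 probe sets tested, and 10 of the 18193 genes that had a probe set of a single symbol. Spred1 was covered by 8 probe sets, Socs2 by 6, Socs3 by 3, Spry2 by 2 and each of the other genes by 1.

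Gene expression arrays were run on 16 samples of MC/9, a mouse mast cell line that grows in culture and depends on cytokines, in 4 groups of 4 arrays. Oxi exo was RNA of exosomes, small vesicles that cells release, collected from cultures with H2O2 at 125 µM over 24 h. Norm exo was RNA of exosomes from normal cultures. By the study's account this H2O2 dose killed a large part of the cells. The part of cell death in the signals was not tested. Oxi cell and norm cell were RNA of the MC/9 cells of the H2O2 and the normal condition. The titles and condition labels give these groups, but the sample descriptions call the cells recipients of exosomes of each condition, whereas the study's methods treat them as the donor cells, and which is right was not settled here. All cultures held Rat T-Stim, a supplement from stimulated rat lymphocytes that supplies cytokines, so the cells of every group were under cytokine stimulation. Nothing states for each group that the 4 arrays came from separate cultures, so the p-values measure the spread between these arrays, which may be partly technical.

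Cytokines such as interleukin 3 bind receptors that carry JAK kinases, which activate STAT transcription factors, and stem cell factor binds the receptor tyrosine kinase Kit, which drives the RAS to ERK cascade in mast cells. Both routes switch on their own brakes. STAT factors induce Cish and the Socs genes, whose proteins bind receptors or JAK kinases and mark them for breakdown or block them. ERK signals induce Dusp4, Dusp5 and Dusp6, whose phosphatases remove phosphate from ERK, and the Sprouty and Spred genes, whose proteins hold back the step from the receptor to RAS and RAF. Because the brakes are induced by the signal they restrain, their mRNA levels follow recent signalling.

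Each value below is the deposited MAS5.0 signal in arbitrary units, scaled by the authors so that the trimmed mean of every array is 100, and the 4 values of a group are given in the order of replicates 1 to 4, which name arrays and have no order in time. A probe set counted as detected in a group when its signal was above the background of each of the 4 arrays, where 95% of 185 probe sets for genes not used in mast cells, such as olfactory receptor genes, lay under the background of an array. This background was 221 to 253 on the oxi exo arrays, 197 to 254 on the norm exo arrays, 10.2 to 12.02 on the oxi cell arrays and 13.2 to 15.2 on the norm cell arrays. The spiked control RNAs were 20.8 times as bright on the oxi exo as on the oxi cell arrays and 17.3 times as bright on the norm exo as on the norm cell arrays, so a signal does not have the same meaning in exosomes and in cells. Of all probe sets, 3.21% were detected in oxi exo, 5.01% in norm exo, 45.5% in oxi cell and 45.0% in norm cell. The ratio of the 3' to the 5' actin probe set, a sign of RNA length, was 2.77 to 6.55 on the exosome arrays and 1.30 to 1.55 on the cell arrays. All 9 mast cell markers on the array, Kit and Fcer1a among them, were detected in both cell groups, with summed signals of 29326 to 35066 in oxi cell and 39239 to 43088 in norm cell. Of markers of other cell types, 2 of 8 T lymphocyte, 1 of 6 B lymphocyte, 3 of 7 macrophage and neutrophil and 0 of 5 fibroblast genes were detected in oxi cell, against 1, 1, 1 and 0 in norm cell, and their summed signals were at most 126 on any cell array for each list. The part of these differences in the results below was not tested, and in bulk RNA fewer cells of a type and less RNA per cell cannot be told apart.

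In the MC/9 cells, 8 of the 10 genes were detected in both groups: Cish, Socs1, Socs2, Socs3, Dusp4, Dusp6, Spred1 and Spry2. With H2O2, Socs2 was higher by 1.71 times and Dusp4 by 1.23 times, and no described probe set of a member, that of highest mean signal in cells, was lower at an adjusted p under 0.05 (limma over all 45037 probe sets) or at an unadjusted p under 0.05. Over all probe sets 4.31% were called higher and 5.51% lower in this comparison. At an unadjusted p under 0.05 in limma 3 members were higher, Socs2, Dusp4 and Cish, where 10104 of the 45037 probe sets passed in either direction. The 10 member genes had a median log2 difference of -0.01, beside -0.15 over all probe sets. The signals of the other brakes of the ERK pathway, Dusp6, Spred1 and Spry2, did not pass the test, and Dusp5 and Spry1 were at background.

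Socs2, whose protein is best known for limiting growth hormone and STAT5 signals, had the most separate values. Its described probe set, the brightest of its 6 in cells, read 157, 144, 130.4 and 164 in oxi cell, against 77.8, 92.1, 86.7 and 90.0 in norm cell. All 4 oxi cell arrays were above all 4 norm cell arrays. The log2 difference was 0.78 ± 0.10 (SE, n = 4 each, 95% interval 0.55 to 1.00), with an adjusted p of 0.000847 from limma. A second Socs2 probe set read 131, 129, 96.8 and 122 in oxi cell, against 68.7, 79.5, 68.1 and 73.4 in norm cell, again without overlap, and its log2 difference was 0.72 ± 0.11 (SE, limma adjusted p = 0.00166). The other 4 Socs2 probe sets averaged 4.44 to 19.3 in oxi cell and 2.63 to 19.1 in norm cell, at or near background, and none was called.

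Cish encodes CIS, a classic STAT5 target that binds activated interleukin 3 and erythropoietin receptors. It read 445, 318, 245 and 170.2 in oxi cell, against 176, 205, 182 and 213 in norm cell. Of the oxi cell arrays 3 were above every norm cell array and 1, replicate 4, was below every norm cell array. The mean was 295 ± 117 in oxi cell and 194 ± 18.0 in norm cell (SD, n = 4 each), and the log2 difference of 0.52 ± 0.19 (SE, 95% interval 0.11 to 0.94) did not pass the test (limma adjusted p = 0.119). Without replicate 4 of both groups it was 0.80, with an adjusted p of 0.0121 in the same fit. That number holds the 1 low oxi cell array, and leaving it out by itself raises the difference. This value therefore only describes the other arrays.

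The promoter of Cish held the letters of the STAT motif TTCNNNGAA in its first transcribed bases, and it is shown here because Cish and the Socs genes are known targets of STAT factors. RefSeq promoters, 250 bases before to 50 after the start in build GRCm38.p6, were matched for 8 of the 10 members and not for Socs2 or Dusp4. The motif was searched on both strands, and as it is its own reverse complement both give the same matches. Cish held 2 matches that did not overlap each other and Socs3 held 1, while the windows of Socs1, Dusp5, Dusp6, Spred1, Spry1 and Spry2 held none. Of all 32851 promoters of this length 8.30% held at least 1 match and 0.457% held 2 or more. The following 30 bases are printed 5′ to 3′ with the matches in capitals. In Cish (chr9:107296654-107296683, plus strand) the matches begin at bases 1 and 12 counted from the start base as 1. In Socs3 (chr11:117969502-117969531, minus strand) the match begins 154 bases before the start of its promoter entry. The annotated Socs3 gene spans chr11:117966079-117970336, so that start and the match lie inside the gene. A match is a run of letters and not a measured binding site.
Cish: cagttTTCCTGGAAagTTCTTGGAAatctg
Socs3: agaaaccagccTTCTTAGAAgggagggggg

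Socs1 and Socs3, whose proteins inhibit JAK kinases directly, were detected in cells and were not called. Socs1 read 47.6, 65.1, 47.2 and 41.2 in oxi cell, against 44.1, 56.2, 53.3 and 54.2 in norm cell, and the groups overlapped (log2 difference -0.06 ± 0.15, SE, 95% interval -0.39 to 0.27, limma adjusted p = 0.867). Socs3 read 186, 231, 155 and 108 in oxi cell, against 228, 149.9, 145 and 210 in norm cell. The log2 difference for Socs3 was -0.13 ± 0.19 (SE, 95% interval -0.54 to 0.28, limma adjusted p = 0.757), and the other 2 Socs3 probe sets differed by -0.05 and -0.01. In all 3 Socs3 probe sets replicate 4 was the lowest oxi cell array, at 108, 47.8 and 109. The intervals of Socs1 and Socs3 hold a fall of 0.30, the size of the Dusp4 difference described next, and end below a rise of that size, at 0.27 and 0.28. These limits hold on the deposited scale only, since scaling to the spiked controls moved every log2 difference in cells up by 0.30.

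The ERK phosphatases did not move as a group. Dusp4 encodes a nuclear phosphatase that acts on ERK and also on JNK and p38. It read 282, 261, 246 and 213 in oxi cell, against 225, 182, 204 and 200.2 in norm cell. Each oxi cell array was above the norm cell array of its own number and 3 of 4 were above all norm cell arrays, but replicate 4 of oxi cell was below replicate 1 of norm cell, so the groups overlapped. Same-numbered cell arrays did not deviate together (r of -0.04 to 0.08), so the order within a number is not that of a pair. The log2 difference was 0.30 ± 0.08 (SE, n = 4 each, 95% interval 0.12 to 0.48, limma adjusted p = 0.0411). The call was lost without replicate 1, 2 or 3, at adjusted p-values of 0.135, 0.198 and 0.0736 in the same fit, and was kept without replicate 4, at 0.0403.

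Dusp6 encodes the cytoplasmic phosphatase that is most selective for ERK, and its mRNA is widely used as a read-out of ERK activity. It read 1472, 1338, 1289 and 924 in oxi cell, against 1354, 1421, 1225 and 1379.8 in norm cell. Replicates 1 to 3 of oxi cell lay among or just above the norm cell arrays, and replicate 4 lay below all of them. The log2 difference was -0.12 ± 0.10 (SE, 95% interval -0.33 to 0.09, limma adjusted p = 0.535), and 0.04 without replicate 4. Dusp5, whose protein holds ERK in the nucleus, read 32.7, 6.72, 3.86 and 3.38 in oxi cell, against 2.20, 14.6, 4.38 and 2.87 in norm cell, and was above background on 1 array of each group, so its level in cells was bounded only by the background.

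Of the Sprouty family, Spred1 and Spry2 were detected in cells. Spred1, whose protein brings neurofibromin to RAS and has a domain that binds Kit, read 1110.4, 1119, 1137 and 1147 in oxi cell, against 1137, 1204, 1092 and 1173 in norm cell. The oxi cell arrays lay within the range of the norm cell arrays. The log2 difference was -0.03 ± 0.05 (SE, 95% interval -0.15 to 0.09, limma adjusted p = 0.821), and its interval was the narrowest among the described probe sets of the members in this comparison. Of its 8 probe sets 6 were detected in both cell groups and none of the 8 was called, while 2 of those 6 were lower at an unadjusted p under 0.05, by 0.16 and 0.19 on the log2 scale (limma adjusted p = 0.180 and 0.203).

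Spry2, whose protein binds GRB2 and holds back RAS activation, read 197, 232, 223 and 181 in oxi cell, against 247, 245, 211 and 248 in norm cell. Of the norm cell arrays 3 were above every oxi cell array and replicate 3 was not. The log2 difference of -0.20 ± 0.09 (SE, 95% interval -0.40 to 0.01) did not pass the test (limma adjusted p = 0.237). Spry1 read 7.28 to 11.8 in oxi cell and 7.12 to 13.6 in norm cell, below background on all 8 arrays.

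**Figure D1:**
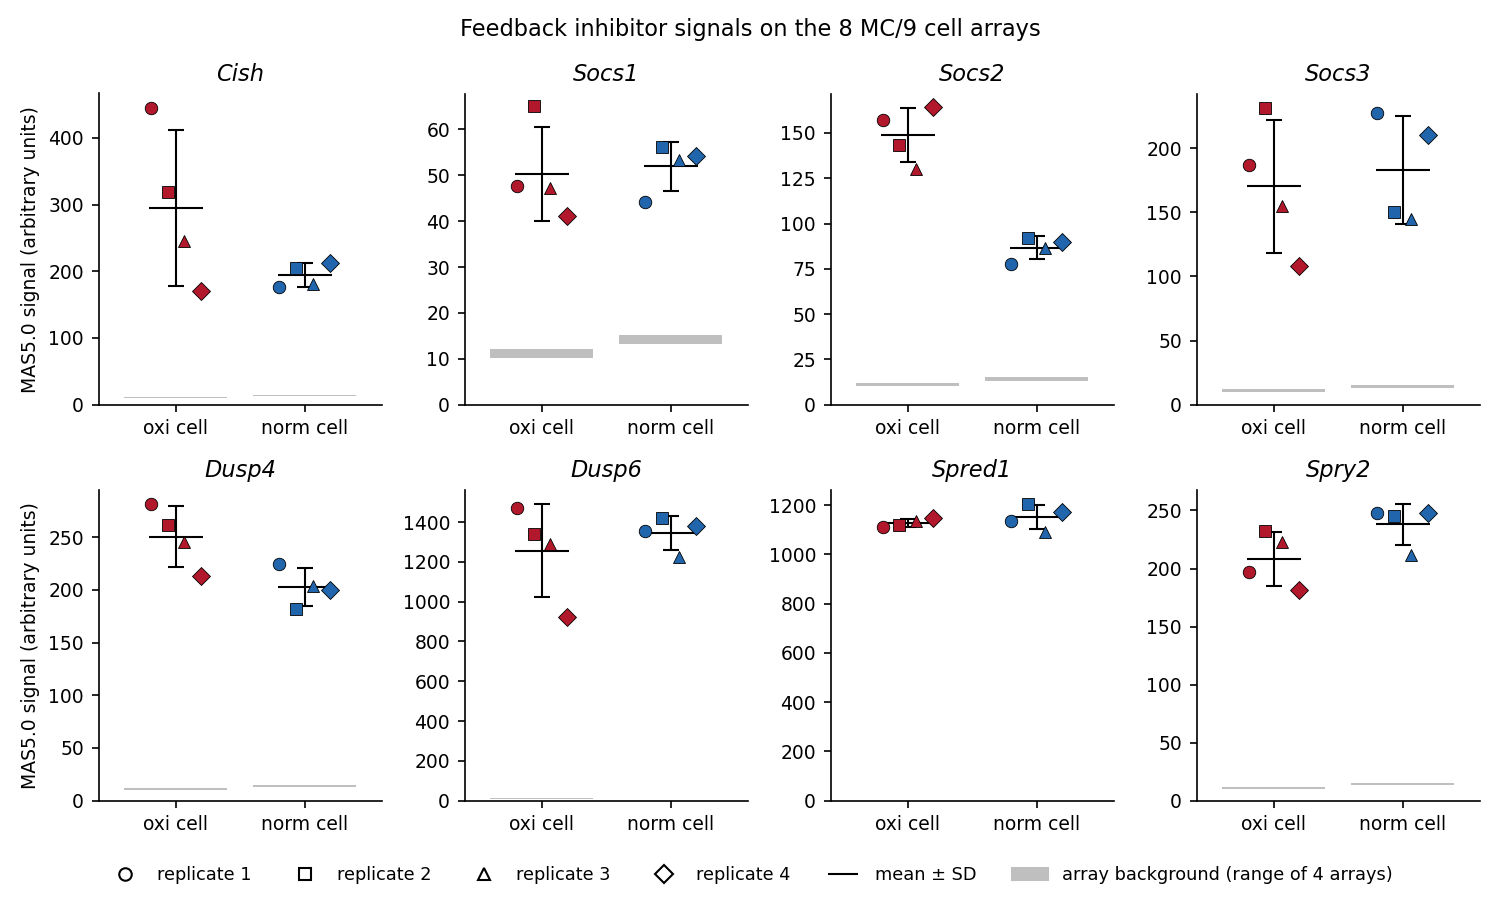
MAS5.0 signals (arbitrary units, y axes from 0) of the 8 members detected in MC/9 cells, with the 4 oxi cell arrays left of the 4 norm cell arrays. Markers are replicates, black lines mean ± SD and gray bands the background of the arrays. Socs2 is the member whose groups are widest apart, at 130.4 to 164 in oxi cell and 77.8 to 92.1 in norm cell, and replicate 4 of oxi cell (diamond) is the lowest of its group for 6 of the 8 genes.

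The sign of 5 of these 8 differences depended on how the arrays were scaled. Scaling to the spiked controls moved every log2 difference in cells up by 0.30 and centring on the array median moved it up by 0.26, and the median of all probe sets then became 0.15 and 0.11 in place of -0.15. Under these scalings 6443 and 6210 probe sets were called higher and 430 and 607 lower, beside 1941 higher and 2483 lower with the deposited scale. Socs2 was then higher by 1.07 and 1.04, Cish by 0.82 and 0.78, Dusp4 by 0.60 and 0.56 and Spred1 by 0.27 and 0.23 on the log2 scale, and all 4 were called, Spred1 with its sign turned. Socs1, Socs3, Dusp6 and Spry2 turned positive and were not called. On the deposited scale Socs2 was 0.92, Cish 0.67, Dusp4 0.45 and Spred1 0.12 above the median of all probe sets. With quantile normalization Socs2 was 0.86, Cish 0.53 and Dusp4 0.32 above that median, and Spred1 lay at -0.10 from it.

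**Figure D2:**
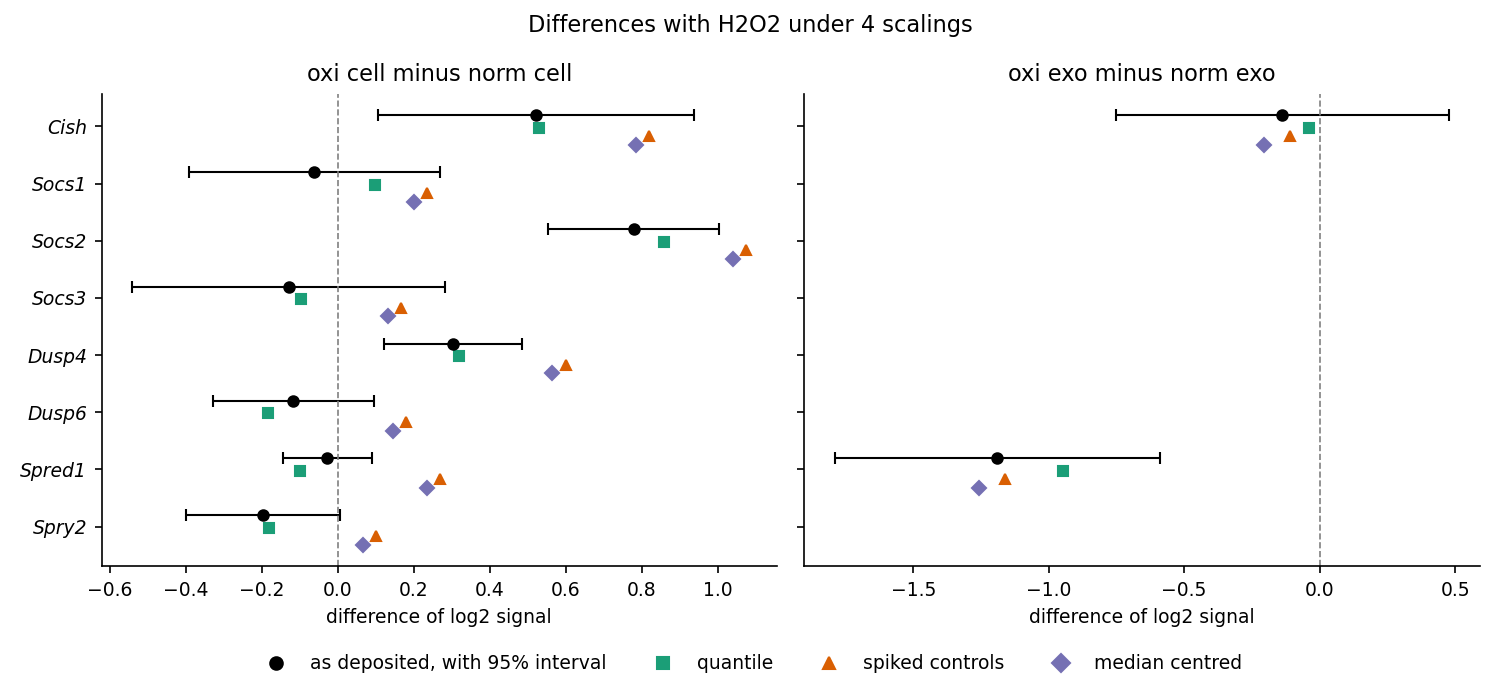
Difference of log2 signal with H2O2 (x axes) for the members detected in all 4 norm arrays of each kind, oxi cell minus norm cell on the left and oxi exo minus norm exo on the right. Black points carry the 95% interval of the limma fit of the deposited signals, and the colored markers give the difference after quantile normalization, scaling to the spiked controls or median centring. Socs2, Cish and Dusp4 are above 0 in cells under all 4 scalings, and Spred1 is below 0 in exosomes under all 4.

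Replicate 4 of oxi cell was the lowest of the 4 oxi cell arrays for 6 of the 8 detected members, Cish, Socs1, Socs3, Dusp4, Dusp6 and Spry2, and the highest for Socs2 and Spred1. Over the 19554 probe sets detected in both cell groups it was the lowest in 26.4% and the highest in 27.0%. Of 20 detected genes from a list of STAT5 and ERK targets it was the lowest for 12, of 10 JAK and STAT genes for 5, of 13 genes of the RAS to ERK cascade for 5, of 21 further inhibitors for 10, of 7 other dual-specificity phosphatase and Sprouty family genes for 3 and of 9 receptor genes for 2.

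Egr1, an immediate early gene of the ERK pathway, read 5124, 5188, 4831 and 589.8 in oxi cell, against 3780.4, 5112, 3713 and 4778 in norm cell. Osm, the STAT5 target that encodes oncostatin M, read 526, 457, 371 and 154 in oxi cell, against 363, 381, 402 and 398 in norm cell. Fos read 121, 114, 302 and 18.9 in oxi cell, against 93.0, 53.5, 43.8 and 29.1 in norm cell. For all 3 genes replicate 4 of oxi cell was below all 7 other cell arrays, and none of them was called on the deposited scale (limma adjusted p = 0.517, 0.725 and 0.191). Fos was called higher without replicate 4, by 1.42 (limma adjusted p = 0.0360), and with the spiked controls (limma adjusted p = 0.0288). Leaving out the lowest oxi cell array by itself raises the difference. Osm and Fos were picked from the list after their values were seen. What set that array apart was not tested.

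The genes whose log2 signals were most like those of Cish and of Dusp6 over the 8 cell arrays were also lowest among the oxi cell arrays on replicate 4. They were picked for that likeness, and are a description from 18054 or 18049 probe sets and 8 arrays, of which 4 share the H2O2 condition. Cish was most like Nup50, Tiparp and Gab2 (Pearson r = 0.99, 0.98 and 0.97), and Dusp6 was most like Cd69, Egr3 and Mob3a (r = 0.98, 0.97 and 0.97). CD69 and EGR3 are products of early response genes of activated leukocytes. Spred1 was most like Rgs18, Npat and Zfp458 (r = 0.97, 0.97 and 0.96). Among the 28 pairs of detected members r was highest for Cish and Dusp4, at 0.80, and for Socs3 and Dusp6, at 0.74, and lowest for Socs2 and Spry2, at -0.73.

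**Figure D3:**
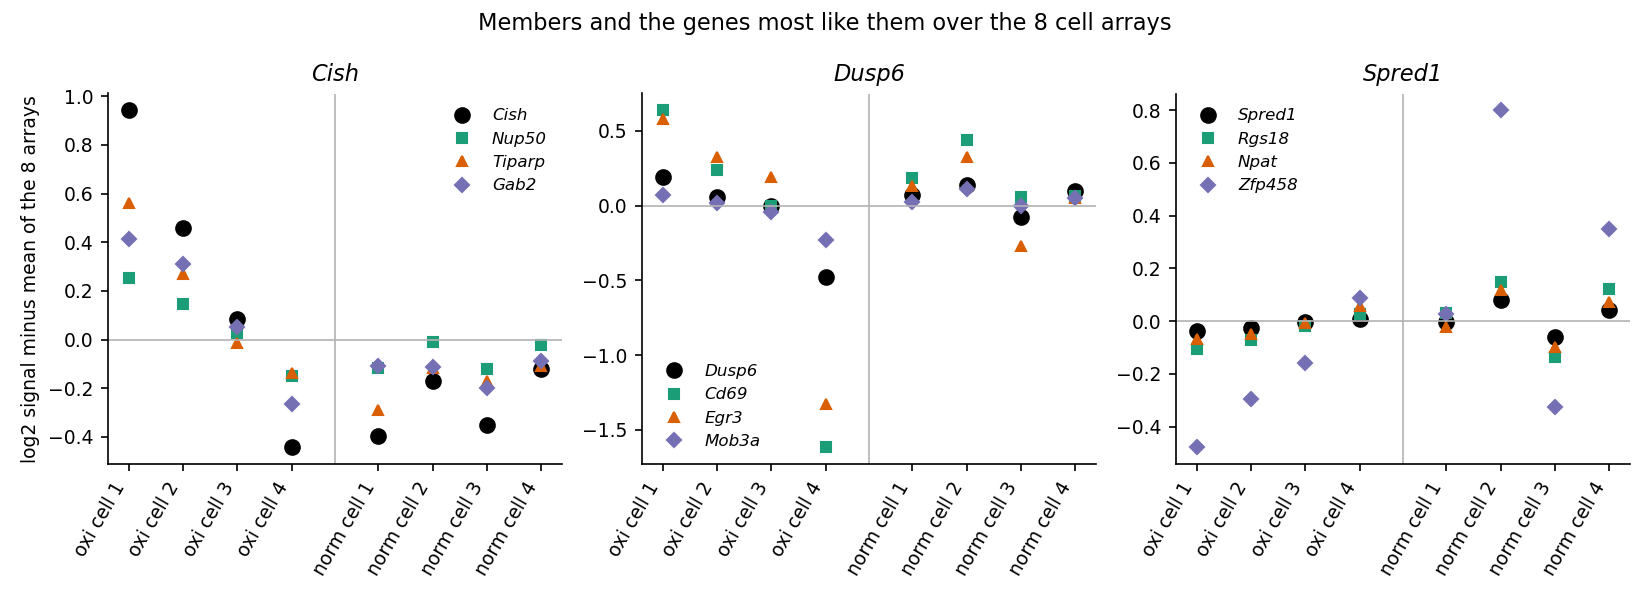
Log2 signal minus the mean of the 8 cell arrays (y axes) for Cish, Dusp6 and Spred1 (black) and the 3 genes most like each, by array, with oxi cell left of norm cell. In the middle panel Cd69, Egr3 and Mob3a share the low value of Dusp6 on replicate 4 of oxi cell, and in the left panel Cish is highest on replicate 1 of oxi cell, at 445, and lowest on replicate 4, at 170.2.

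The genes upstream of the brakes showed changes in both directions in cells. Of 10 JAK and STAT genes 2 were called higher with H2O2, Stat4 and Stat5a, and 4 lower, Jak2, Jak3, Stat3 and Stat6. Jak2, the kinase of the interleukin 3 receptor, averaged 373 ± 25.6 in oxi cell and 622 ± 17.4 in norm cell (SD, n = 4 each, log2 difference -0.74, limma adjusted p = 8.29e-05), and it was lower and called under each scaling. Stat5a, which activates Cish and Socs2, averaged 285 ± 23.9 in oxi cell and 229.7 ± 7.53 in norm cell (log2 difference 0.31, limma adjusted p = 0.0249), and it was higher and called under each scaling but not without replicate 4 (adjusted p = 0.0665). Without replicate 4 Stat4 and Stat6 also lost their calls (adjusted p = 0.0534 and 0.134) and Stat2 was called lower, so that 0 were higher and 4 lower. Stat3 lost its call, and Stat6 turned to 0.04 and 0.00, under scaling to the spiked controls and median centring, and Jak3 lost its call with the spiked controls, at -0.26 (adjusted p = 0.0958). Jak1, which serves many cytokine receptors, averaged 2328 ± 156 in oxi cell and 2354 ± 136 in norm cell (SD, limma adjusted p = 0.905), and was called higher, by 0.28 and 0.25, under these 2 scalings.

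Of 12 receptor genes on the array 1 was called in cells, Csf2ra, lower by 0.23, which turned to 0.06 with the spiked controls and was not called without replicate 4. Kit averaged 1616 ± 116 in oxi cell and 1595 ± 15.9 in norm cell (SD, n = 4 each, log2 difference 0.02, limma adjusted p = 0.913), and was called higher, by 0.31 and 0.28, with the spiked controls and median centring. Csf2rb, the shared beta chain of the interleukin 3, interleukin 5 and GM-CSF receptors, averaged 4978 ± 473 in oxi cell and 4709.8 ± 230.2 in norm cell (log2 difference 0.08, limma adjusted p = 0.437), and was called higher, by 0.17 with quantile normalization and by 0.37 and 0.34 with the spiked controls and median centring. Its near copy Csf2rb2, whose probes may pick up the same RNA, averaged 2921 ± 229.8 in oxi cell and 2883 ± 163 in norm cell, and was called higher, by 0.31 and 0.28, under the last 2 scalings.

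Of 14 genes of the RAS to ERK cascade 2 were called higher, the adaptor gene Grb2 and the ERK kinase gene Map2k2, and 3 lower, Sos2, Braf and Rps6ka3. With the spiked controls and median centring 6 were called higher and 0 lower, and Rps6ka3 turned to 0.03 under the spiked controls. With quantile normalization 1 was higher and 2 lower. Without replicate 4 the calls of Grb2, Map2k2 and Rps6ka3 were lost (limma adjusted p = 0.0858, 0.0629 and 0.0962), which left 0 higher and 2 lower. Gab2, an adaptor that links Kit to SHP2, averaged 954 ± 57.7 in oxi cell and 866 ± 27.7 in norm cell (SD, n = 4 each, limma adjusted p = 0.170), and was called higher, by 0.43 and 0.40, with the spiked controls and median centring.

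Of 25 further inhibitors, among them Socs4 to Socs7, Ptpn6 and Inpp5d, 2 were called lower, Cblb and Rasa1, and 0 higher, and with the spiked controls these calls were lost and 5 genes were called higher. Ptprc, which encodes the phosphatase CD45, averaged 1138 ± 95.4 in oxi cell and 1041 ± 50.04 in norm cell, and Inpp5d, which encodes the lipid phosphatase SHIP1, averaged 929.9 ± 53.4 in oxi cell and 988 ± 37.4 in norm cell (SD, n = 4 each). Neither passed the test (limma adjusted p = 0.312 and 0.366), but Ptprc was called higher, by 0.42, with the spiked controls. Of 14 other dual-specificity phosphatase and Sprouty family genes none was called in either direction by limma on the deposited signals. With the spiked controls 3 were called higher, Spred2, Dusp16 and Dusp14. Dusp14 was higher by 1.19 there, by 1.12 with quantile normalization and by 1.15 with median centring, and was called each time. It was not called without replicate 4, at 0.98. Spred2, the close relative of Spred1, averaged 506 ± 6.61 in oxi cell and 511 ± 35.7 in norm cell (SD, n = 4 each), and the phosphatase genes Dusp16 and Dusp3 averaged 187 ± 16.2 and 153 ± 12.4 in oxi cell, against 184 ± 14.04 and 156 ± 14.1 in norm cell.

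Of 22 STAT5 and ERK target genes 2 were called higher in cells, Fosl1 by 0.87 and Phlda1 by 0.47, and 3 lower, Ccnd1 by 0.49, Ccnd2 by 0.23 and Bcl6 by 0.94 on the log2 scale. BCL6 is a repressor that STAT5 is known to silence, and its signal averaged 29.7 ± 6.32 in oxi cell and 56.4 ± 7.92 in norm cell (SD, n = 4 each, limma adjusted p = 0.0112). Phlda1 averaged 505 ± 54.5 in oxi cell and 364 ± 41.9 in norm cell (SD, n = 4 each, limma adjusted p = 0.00193). With the spiked controls 9 genes of the list were called higher and 0 lower, and Ccnd2 turned to 0.07, and to 0.02 with quantile normalization. Without replicate 4 the counts were 4 higher and 2 lower. Ier3, an ERK target, averaged 2432 ± 468 in oxi cell, where replicate 4 was lowest at 1745, and 2233 ± 21.0 in norm cell, and was among the genes called with the spiked controls. The lists of this and the last 4 paragraphs are described by counts alone, and their shares called can be read against the 4.31% and 5.51% of all probe sets.

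In the exosomes few members had a signal above background. Through their described probe sets, none of the 10 genes was detected on all 4 arrays in oxi exo, 3 were above background on some arrays and 7 on none. In norm exo Cish and Spred1 were detected on all 4 arrays, Spry2 was above background on 1 array and 7 genes were above it on none. Other probe sets were above background on some arrays of both groups for Socs2 and on 1 norm exo array for Socs3, which left 6 genes with no probe set above it in oxi exo and 5 in norm exo. With H2O2 Spred1 was the only member called, lower by 2.28 times against a group in which 1 of 4 arrays was above background. No described probe set was higher in limma at an adjusted or an unadjusted p under 0.05. Over all probe sets 0.0311% were called higher and 1.70% lower. Of the 2258 probe sets detected in norm exo, 30.2% were called lower and 2 probe sets higher, at a median log2 difference of -0.61. Of them 29.8% had a lower log2 difference than Spred1. They were picked by their norm exo signal, which by itself favors falls. The member genes had a median log2 difference of -0.17, beside 0.06 over all probe sets.

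Spred1 read 235, 474, 219 and 174 in oxi exo, against 646, 581, 523 and 587 in norm exo. All 4 oxi exo arrays were below all 4 norm exo arrays, and only replicate 2 of oxi exo was above background. The log2 difference was -1.19 ± 0.28 (SE, n = 4 each, 95% interval -1.79 to -0.59, limma adjusted p = 0.0408). With signals raised to background it was -0.99, also called. The call was lost with quantile normalization, at -0.95 and an adjusted p of 0.212, with the spiked controls, at 0.0830, and without replicate 1, 3 or 4, at 0.195, 0.0974 and 0.202. The other 7 Spred1 probe sets were not called. The 2 brightest of them in cells, each above background on 1 norm exo array, differed by -1.40 and -1.20 with adjusted p-values of 0.485 and 0.505.

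Of the lists of upstream genes, 2 of 12 receptor genes and 2 of 14 genes of the RAS to ERK cascade were called lower in oxi exo and 0 higher. Of the 10 JAK and STAT genes, 25 further inhibitors and 14 other phosphatase and Sprouty family genes 0 were called. Of the 22 STAT5 and ERK targets 1 was called, lower. The shares called lower were 1.70% over all probe sets and 30.2% of those detected in norm exo. Csf2rb averaged 1555 ± 640.5 in oxi exo and 4366 ± 1173 in norm exo (SD, n = 4 each, log2 difference -1.54, limma adjusted p = 0.000911). Ptpn11, which encodes the phosphatase SHP2 that relays Kit signals to RAS, averaged 244 ± 28.7 in oxi exo, near background, and 625 ± 135 in norm exo (log2 difference -1.34, limma adjusted p = 0.00927). Both kept their direction under quantile normalization, at -0.53 and -1.11, where neither was called. Under that scaling 1 of the 14 cascade genes was called lower, Map2k2 at -3.23 (limma adjusted p = 0.0424). No gene of the other lists was called there.

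Cish read 188, 324, 314 and 317 in oxi exo, against 309.8, 358, 270.1 and 295 in norm exo. It was above background on 3 of 4 oxi exo and on all 4 norm exo arrays, and the groups overlapped. The log2 difference was -0.14 ± 0.29 (SE, 95% interval -0.75 to 0.48, limma adjusted p = 0.927). Spry2 read 228, 278, 273 and 217 in oxi exo, against 116, 206, 140.4 and 191 in norm exo, close to background on both kinds of array and above it on 2 of 4 oxi exo and 1 of 4 norm exo arrays. All 4 oxi exo values of Spry2 were above all 4 norm exo values, and the log2 difference of 0.64 ± 0.34 (SE) did not pass the test (limma adjusted p = 0.580). The Socs2 probe set described in cells read 222, 50.9, 173 and 174 in oxi exo, against 143, 112, 244 and 152 in norm exo, below background on all 8 arrays. The second one called in cells was also below it on all 8. Of the Socs2 probe sets at or near background in cells, 1 read 214, 192, 267 and 273 in oxi exo, against 229.6, 169, 141 and 240.1 in norm exo, and was above background on 2 arrays of each group. Another read 165, 335, 238 and 234 in oxi exo, against 209, 273, 137 and 217 in norm exo, above background on 1 oxi exo and 3 norm exo arrays. In both the groups overlapped, with log2 differences of 0.30 ± 0.33 and 0.21 ± 0.33 (SE, limma adjusted p = 0.831 and 0.891).

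**Figure D4:**
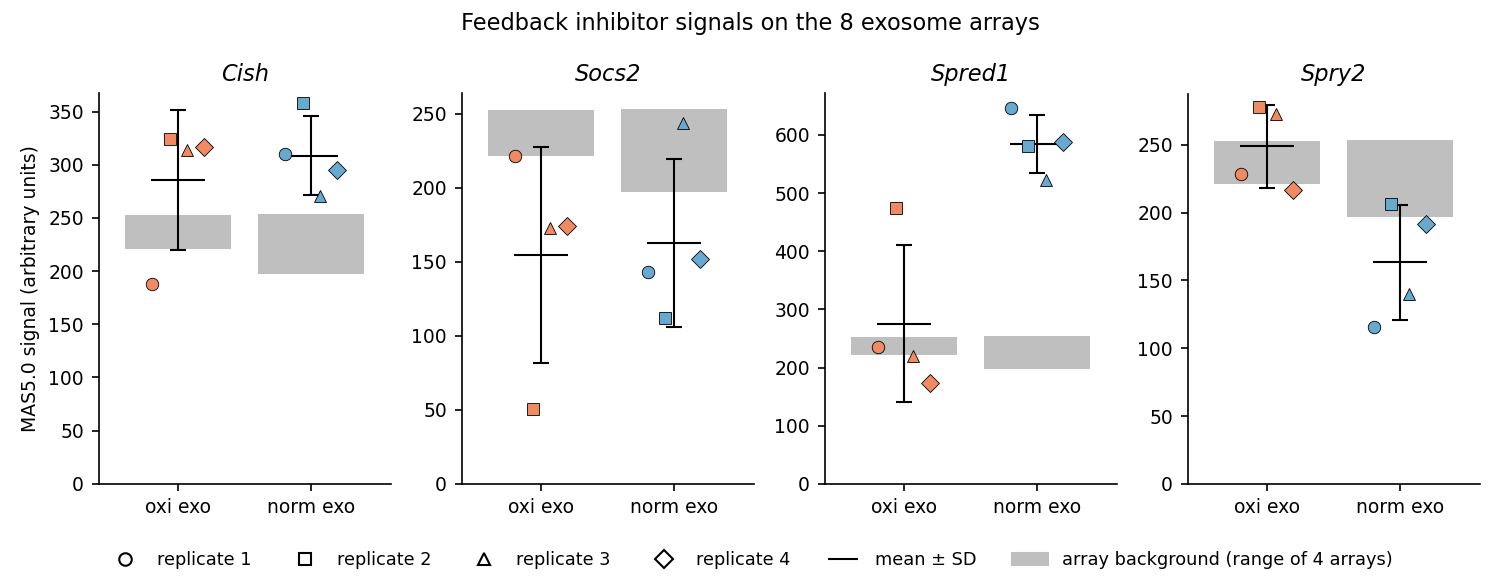
MAS5.0 signals (arbitrary units, y axes from 0) of Cish, Socs2, Spred1 and Spry2 on the exosome arrays, with the 4 oxi exo arrays left of the 4 norm exo arrays. Markers are replicates, black lines mean ± SD and gray bands the range of the background over the 4 arrays. Spred1 lies between 523 and 646 in norm exo, above the band, and between 174 and 474 in oxi exo, while the Socs2 probe set plotted, the one described in cells, stays below the background of its own array in each case.

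Exosomes were next set against cells of the same condition, to see which brakes were carried in exosomal RNA. In norm exo against norm cell 3 members were called higher, Cish, Socs2 and Spry1, and 4 lower, Socs3, Dusp4, Dusp6 and Spred1, where 57.7% of all probe sets were called higher and 19.0% lower. In oxi exo against oxi cell 1 was called higher, Spry1, and 4 lower, again Socs3, Dusp4, Dusp6 and Spred1, where 60.8% of all probe sets were called higher and 19.4% lower. The median log2 difference of the members was -0.38 in the normal and -0.27 in the H2O2 condition, beside 2.23 and 2.67 over all probe sets. For genes with several probe sets the described one was picked by its cell signal, which by itself favors lower values in exosomes. Over all 25 member probe sets 10 were called higher and 8 lower in the normal condition. In the H2O2 condition these counts were 7 and 10. The described probe sets of Socs2, Socs3 and Spry1 were below background on all 8 exosome arrays, whose background was 21.4 times that of the cell arrays in the H2O2 and 15.3 times in the normal condition. Socs3 read 108 to 231 in cells, beside an exosome background of 197 to 254, so no bound could be given. Its other 2 probe sets differed by 0.42 and -0.42 in the normal condition, neither called. In the H2O2 condition they differed by -0.20, not called, and -1.48, called. Under scaling to the spiked controls 0 members were called higher in either comparison, and 8 were called lower in the normal and 9 in the H2O2 condition. The split over all probe sets turned likewise, to 1232 higher and 23105 lower in norm exo against norm cell, beside 25977 and 8538 on the deposited scale, and to 1780 higher and 22455 lower in oxi exo against oxi cell, beside 27373 and 8740.

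Dusp6 was the member whose lower exosomal signal held under each scaling and floor tried. It read 104, 98.8, 149 and 106 in oxi exo, against the 924 to 1472 of oxi cell, and 106, 121, 54.3 and 128 in norm exo, against the 1225 to 1421 of norm cell. All 8 exosome values were below background, so the difference is a bound. With the higher of background and signal taken on each exosome array, oxi exo held at least 5.10-fold less Dusp6 signal than oxi cell, and norm exo at least 6.21-fold less than norm cell. The adjusted p-values of the limma fit of the signals as deposited, which are not those of the bounds, were 1.89e-05 and 3.78e-06.

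Dusp4 read 7.72, 23.0, 6.97 and 7.84 in oxi exo and 17.6, 115, 5.03 and 19.1 in norm exo, far below the background of those arrays. Its log2 differences from cells were -4.65 in the H2O2 and -3.27 in the normal condition, but with signals raised to background they became -0.04 and 0.10, neither called, so no size beyond background was available. Spred1, detected in norm exo, was lower there than in norm cell by 0.98 ± 0.17 on the log2 scale (SE, n = 4 each, limma adjusted p = 0.00067), and oxi exo was lower than oxi cell by 2.14 ± 0.29 (SE, limma adjusted p = 0.000175), with 1 of 4 oxi exo arrays above background. With signals raised to background the difference in the H2O2 condition was -1.94. Quantile normalization turned the Spred1 difference in the normal condition to 0.46, with an adjusted p of 0.0472, and left that in the H2O2 condition at -0.94, not called.

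On the deposited scale Cish was called higher in norm exo than in norm cell, and not in oxi exo against oxi cell. It averaged 286 ± 65.4 in oxi exo and 295 ± 117 in oxi cell (SD, n = 4 each, log2 difference 0.01, limma adjusted p = 0.983), and 308 ± 37.1 in norm exo and 194 ± 18.0 in norm cell (log2 difference 0.67, limma adjusted p = 0.0262). With the spiked controls the differences were -4.37 and -3.44, and with median centring -2.78 and -1.79, all called. A direction for Cish between exosomes and cells therefore rested on the choice of scale.

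**Figure D5:**
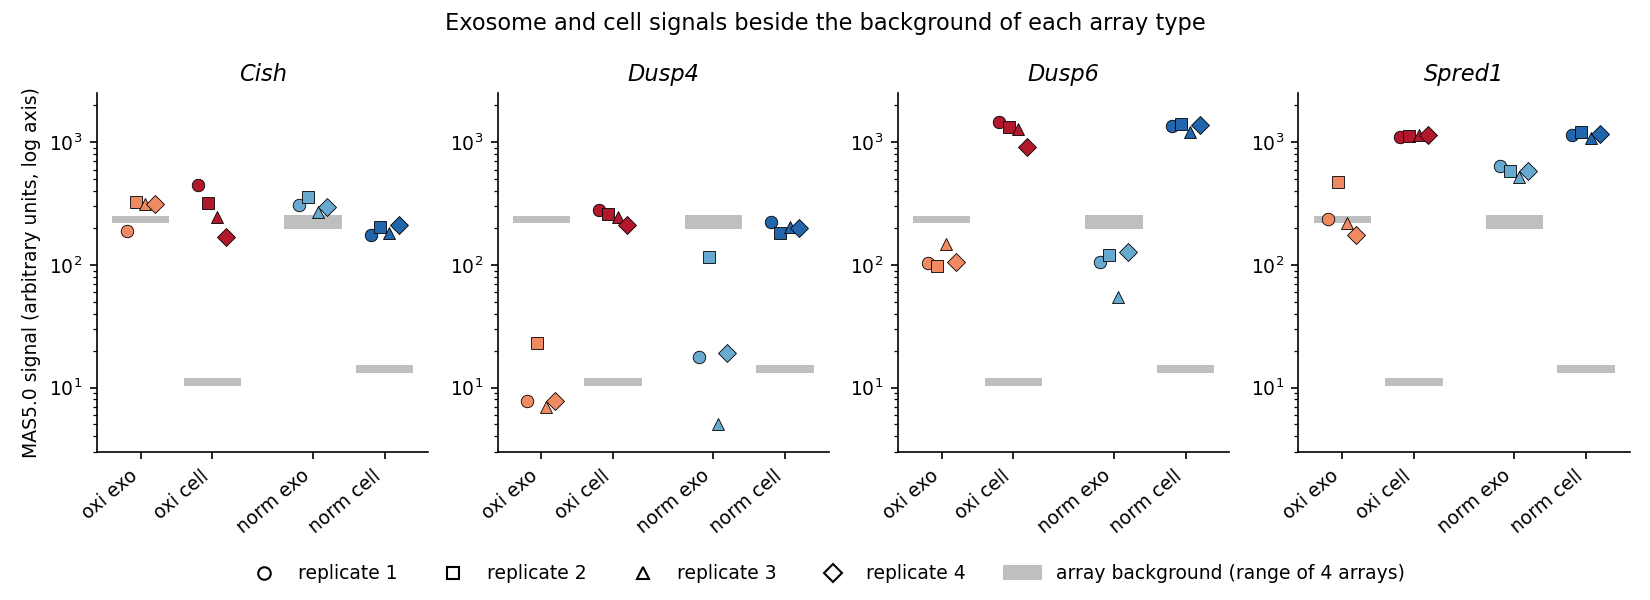
MAS5.0 signals (arbitrary units, log axis) of Cish, Dusp4, Dusp6 and Spred1 in oxi exo beside oxi cell and in norm exo beside norm cell. Markers are replicates and gray bands the background of the 4 arrays of each group, 197 to 254 or 221 to 253 for exosomes and 10.2 to 15.2 for cells. Dusp6 is far above the band in cells and below it in exosomes. Of these genes only Cish and Spred1 are above the band in norm exo. In oxi exo Cish is above it on 3 of 4 arrays and Spred1 on 1 of 4.

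The change with H2O2 in exosomes was last compared with that in cells. No member was called in either direction in this test of the difference between the changes. At an unadjusted p under 0.05 in limma 1 was higher, Spry2 at 0.83, and 2 were lower, Spred1 and Dusp4, the latter at -1.38. Dusp4 was below background on all 8 exosome arrays. Over all probe sets 0.0933% were called higher and 1.47% lower by limma, and 5952 had an unadjusted p under 0.05. Spred1 differed by -1.16 ± 0.31 (SE, 95% interval -1.85 to -0.47, limma adjusted p = 0.114), with a lower signal called with H2O2 in exosomes and none called in cells. This difference was called with the spiked controls, at -1.43 and an adjusted p of 0.0425, and with median centring, at -1.49 and 0.0287. Socs2 differed by -0.98 ± 0.45 (SE, limma adjusted p = 0.379) and Cish by -0.66 ± 0.40 (SE, limma adjusted p = 0.518), with exosomal signals at or near background. The 2 Socs2 probe sets called higher in cells were below background on all 8 exosome arrays, and a difference between the changes was not shown for Socs2 on the deposited scale.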

How the data were processed

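MC/9 exosomes and cells, with and without H2O2, were profiled on Affymetrix mouse arrays, 4 per group. The authors deposited MAS5.0 signal intensities, computed with GCOS 1.2 and scaled by the authors to a trimmed mean of 100 per array, on a linear scale and with no detection calls. Neither intensity nor signal gives a depth, and the number of arrays limits the precision. The signals were checked to have a trimmed mean of 100 with 2% trimmed at each end. Here 64 control probe sets were left out, and genes were named from the platform annotation, in which 34945 of 45037 probe sets had 1 symbol, 932 several and 9160 none.

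Log2 signals were tested with limma 3.58.1 in R 4.3.3 (lmFit, eBayes with trend) on the groups compared, with the replicate number as a block since the methods name a paired test, and Benjamini-Hochberg adjustment over all 45037 probe sets at 0.05. The change in exosomes minus that in cells was tested on 8 within-number differences. Scripts were tested on simulated data. A fold against a group at background used the higher of signal and background per array.

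A gene was described through its probe set of highest mean cell signal. All members, the 3 genes of highest cell signal per pathway list, genes needed to describe a member and, after their values were seen, genes called in a list were named. Members and lists were chosen with earlier results of these data known. Alternatives were no block, 3 scalings, a filter on low signals, log2(signal + 100), signals raised to background, the methods' paired test, the probe set of highest signal over 16 arrays and leaving out each replicate. Scalings and leaving out replicate 4 for the pathway lists were added after seeing the data.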

Additional observations from a re-analysis of the deposited data

Results flagged for a closer look

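There were 19 groups of 4 arrays in which the described probe set of a member was above background on at least 3 arrays. Of these, 2 held an array whose gap to the nearest of the others took up more of the group's range than Dixon's 95% critical value, which chance gives in about 1 in 20 groups. Cish read 188 on replicate 1 of oxi exo, where the other 3 arrays read 314 to 324. This array was the single oxi exo array on which Cish was not above background, and without replicate 1 the log2 difference of oxi exo against norm exo was 0.06 in place of -0.14, called in neither case (limma adjusted p = 0.977 and 0.927). Spry2 read 211 on replicate 3 of norm cell, where the other 3 arrays read 245 to 248. Without replicate 3 the log2 difference of Spry2 in oxi cell against norm cell was -0.29 in place of -0.20 (limma adjusted p = 0.0878 and 0.237). The cause of neither value was tested.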

How the results depend on the processing

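In cells Socs2 was called higher under each scaling, filter, floor and left-out replicate tried, with log2 differences of 0.41 with log2(signal + 100) to 1.07, and not with the methods' paired test after adjustment (adjusted p = 0.125 on linear and on log2 signals), which called 0 members in cells or between exosomes of the 2 conditions and, before adjustment, Socs2 and Dusp4 in cells and Spred1 and Spry2 in exosomes. The number of members higher in cells was 2, with 4 under the spiked controls and median centring, 1 with log2(signal + 100), 0 with the methods' paired test on linear and log2 signals and 1 to 3 without 1 replicate. The number lower in oxi exo was 1, with 0 under quantile normalization, the spiked controls and both forms of the methods' test and 0 to 1 without 1 replicate. In norm exo against norm cell 3 members were higher and 4 lower, with 0 and 8 under the spiked controls and median centring, 2 lower with signals raised to background, 1 higher with the methods' test on linear and 2 lower on log2 signals, and 1 to 3 higher and 3 to 4 lower without 1 replicate. In oxi exo against oxi cell 1 was higher and 4 lower, with 0 and 9 under the spiked controls, 0 and 8 under median centring, 0 higher under quantile normalization, 5 and 2 with signals raised to background and 2 higher with the methods' test on log2 signals. For the difference of the changes 1 was lower under the spiked controls and median centring, and 1 was higher and 2 lower with signals raised to background, in place of 0.

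Differences that turned in cells were Socs1 (0.10 quantile, 0.23 spiked controls, 0.20 median centring), Socs3 (0.17 spiked controls, 0.13 median centring), Dusp6 (0.18 and 0.14), Spred1 (0.27 and 0.23) and Spry2 (0.10 and 0.065). Without 1 replicate Socs1 ranged from -0.15 to 0.049, Socs3 from -0.38 to 0.14, Dusp6 from -0.20 to 0.036 and, in exosomes, Cish from -0.26 to 0.058. Between exosomes and cells Spred1 turned to 0.46 under quantile normalization in the normal condition, Dusp4 to 0.10 there with signals raised to background, and Cish to -3.44 and -1.79 in the normal and -4.37 and -2.78 in the H2O2 condition (spiked controls and median centring). Cish in oxi exo against oxi cell was also -0.0033 with log2(signal + 100), -8.92 signal units with the methods' test on linear signals, and -0.29 to 0.43 without 1 replicate. The median of all probe sets between exosomes and cells was -1.88 in place of 2.23 in the normal and -1.71 in place of 2.67 in the H2O2 condition with the spiked controls. The cause of these turns beyond the change of scale was not tested.

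Without the replicate block the member counts were 2 higher in cells, 1 lower in oxi exo, 4 higher and 5 lower in norm exo against norm cell and 1 higher and 4 lower in oxi exo against oxi cell, and Dusp4 in cells had an adjusted p of 0.0492. Same-numbered arrays did not deviate together throughout (r of -0.19 to 0.45 over the 4 comparisons), and not every array was most like that of its own number, so the samples share only a number. Over all probe sets the counts in cells were 1941 higher and 2483 lower, with 6443 and 430 under the spiked controls, 6210 and 607 under median centring, 7109 lower with signals raised to background, 2 and 3 with the methods' test on linear and 0 and 0 on log2 signals and 1130 to 1672 and 1363 to 2045 without 1 replicate. In exosomes 14 higher and 764 lower became 115 and 276 under quantile normalization, 8 higher with the spiked controls, 39 higher with log2(signal + 100), 123 higher with signals raised to background, 0 and 0 with the methods' test, and 8 to 20 and 484 to 802 without 1 replicate. For the difference of the changes 42 higher and 662 lower became 112 higher without the block, 20 and 239 under quantile normalization, 26 higher with the spiked controls, 1304 lower under median centring, 85 higher with the filter, 201 higher with log2(signal + 100), 12165 and 1797 with signals raised to background, 0 and 4 or 0 and 0 with the methods' test, and 0 to 22 and 6 to 543 without 1 replicate. In norm exo against norm cell 25977 higher and 8538 lower became 8352 higher under quantile normalization, 1232 and 23105 with the spiked controls, 8227 and 17617 under median centring, 7403 higher with the filter, 5200 lower with signals raised to background, and 7794 higher or 5606 lower with the methods' test on linear or log2 signals. In oxi exo against oxi cell 27373 and 8740 became 9318 higher, 1780 and 22455, 9715 and 17672, 7741 higher, 5210 lower and 9710 higher in the same order, the last on linear signals. Signals near background limit the exosome results.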
